A study of Mus musculus with 6 samples.

Results

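The let-7 and miR-98 family is a group of mouse microRNAs (miRNAs) that share the start of their sequence. Its members were taken as the miRNA entries of the small RNA count table whose name begins with let-7 or miR-98, both arms of the hairpin included, which gave 22 of 1900 miRNA entries. They were measured by small RNA sequencing of purified round spermatids (postmeiotic, haploid male germ cells) from testes of C57BL/6 mice at postnatal day 21. The series compared 3 libraries from Miwi knockout (Miwi KO) mice with 3 libraries from wild-type (WT) mice. The knockout is global, so every cell of the animal lacks the gene, and the line was recovered from bought cryopreserved sperm. Per the series' design text, spermatogenesis in these males stops at an early round spermatid step, and the study asked whether pachytene piRNAs, the small RNAs that MIWI binds, are altered without the protein. The labels do not say whether the 3 libraries of a genotype came from separate animals, how many animals each one pooled, or how the cells were purified.

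As background, let-7 miRNAs are cut from hairpin precursors by Drosha and Dicer, and the strand kept in Argonaute, usually the 5p strand, pairs with target mRNAs through its seed, the bases near its 5′ end. The family is known for promoting differentiation: LIN28, which undifferentiated spermatogonia carry, binds let-7 precursors and blocks their maturation, and let-7 targets include Lin28 itself and several growth and cell cycle genes. MIWI is an Argonaute relative of the PIWI class that holds piRNAs, not miRNAs.

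The mature sequences are shown because they define the family and set how far its members can be told apart. All 22 members were found by name in the RefSeq table of mouse miRNAs (GRCm38.p6), which lists 14 genes for them. The 11 strands named 5p or without an arm are printed below 5′ to 3′, with bases 2 to 8, the seed, in capitals; elsewhere the species prefix mmu- is left out.

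mmu-let-7a-5p: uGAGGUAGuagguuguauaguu

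mmu-let-7b-5p: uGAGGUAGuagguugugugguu

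mmu-let-7c-5p: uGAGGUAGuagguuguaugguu

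mmu-let-7d-5p: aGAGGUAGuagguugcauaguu

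mmu-let-7e-5p: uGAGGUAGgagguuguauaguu

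mmu-let-7f-5p: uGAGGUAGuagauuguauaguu

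mmu-let-7g-5p: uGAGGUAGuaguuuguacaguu

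mmu-let-7i-5p: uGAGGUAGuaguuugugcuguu

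mmu-let-7j: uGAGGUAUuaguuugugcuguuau

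mmu-let-7k: uGAGGUAGgagguugugug

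mmu-miR-98-5p: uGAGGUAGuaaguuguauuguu

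The seed of let-7a-5p was shared by 10 of these 11 strands, the exception being let-7j. Outside the seed the members differ at few places, counted from the 5′ end with the let-7a-5p base given first. A single change separates let-7c-5p (A19G), let-7e-5p (U9G) and let-7f-5p (G12A) from let-7a-5p. Differences at 2 bases separate let-7b-5p (A17G and A19G), let-7d-5p (U1A and U16C), let-7g-5p (G12U and U18C) and miR-98-5p (G11A and A19U). How the authors' alignment and counting treated reads that match several of these sequences is not given in the sources used here, so the split of reads between near-identical members is uncertain.

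The family's genes lie in several places of the genome, given here in GRCm38 coordinates of the hairpins. Mirlet7a-1 (chr13:48538179-48538272), Mirlet7f-1 (chr13:48537829-48537917) and Mirlet7d (chr13:48536012-48536114) stand together on the minus strand in exons of the long noncoding RNA gene 6720427I07Rik. Mirlet7c-2 (chr15:85706603-85706697) and Mirlet7b (chr15:85707319-85707403) lie on the plus strand in exonic sequence of the noncoding gene Lncppara. On the X chromosome, Mirlet7f-2 (chrX:151912346-151912428) and Mir98 (chrX:151913214-151913321) lie in introns of Huwe1 on its own strand. Mirlet7g (chr9:106178840-106178927) lies in an intron of Wdr82, and Mirlet7i (chr10:122985640-122985724) in an exon of the pseudogene D630033A02Rik. Genes of the family also sit beside other miRNAs: Mirlet7c-1 (chr16:77599657-77599750) beside Mir99a and Mir125b-2, Mirlet7e (chr17:17830352-17830444) between Mir99b and Mir125a, and Mirlet7a-2 (chr9:41536716-41536811) between Mir100 and Mir125b-1. Mir7k (chr5:147283189-147283298) and Mir7j (chr3:140028249-140028370) overlap no annotated gene. Because let-7a-5p, let-7c-5p and let-7f-5p each come from more than 1 hairpin gene with the same mature sequence, their counts cannot be assigned to a locus.

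The libraries differed in composition by genotype. The table held 747443 to 1335013 counts per Miwi KO library and 3114845 to 5037232 per WT library, and miRNAs made up 18.1% to 19.6% of them in Miwi KO libraries against 4.88% to 5.96% in WT libraries. The miRNA totals themselves were alike in range, 146487 to 243655 counts in Miwi KO libraries and 179761 to 246030 in WT libraries, and family members took 7053 to 10818 of these counts in Miwi KO libraries and 5216 to 7397 in WT libraries. Levels below are therefore CPM, here counts per 1000000 miRNA counts of the library. In both genotypes the library numbered 3 held the highest share of snoRNA reads, 0.563% in Miwi KO replicate 3 and 0.431% in WT replicate 3, with 0.130% to 0.190% in the other 4 libraries. Germ cell miRNAs of the miR-34 and miR-449 group, which mark meiotic and postmeiotic cells, summed to 315278 to 355363 CPM in Miwi KO libraries and 285449 to 305504 in WT libraries, so germ cell markers were abundant in all 6 libraries. These markers do not separate round spermatids from spermatocytes, so they do not check that part of the label. Small RNA libraries do not measure Miwi mRNA, so it gave no check of the genotype labels.

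The 5p strands of let-7a, the most abundant member, and of let-7f were higher in the Miwi KO libraries, and the rest of the 5p strands were not called. The entry mmu-let-7a-5p stood at 19689.7, 20725 and 14163.5 CPM in Miwi KO libraries, against 8773, 11039 and 10084 in WT libraries. Every Miwi KO library lay above every WT library, and the lowest Miwi KO value was that of replicate 3. The means were 18193 ± 3528 in Miwi KO and 9965 ± 1138 in WT (SD, n = 3 each), a ratio of 1.83, and let-7a-5p ranked 12th among miRNA entries in Miwi KO and 19th in WT. In edgeR's quasi-likelihood test, scaled to the miRNA total and adjusted by Benjamini-Hochberg over 24682 tested entries, its log2 change was 0.87 (SE 0.17, adjusted p = 1.42e-05). In these bulk libraries, a change in the number of cells of a type and a change in RNA per cell cannot be told apart.

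let-7f-5p, which differs from let-7a-5p by G12A, followed the same pattern at a lower level. The entry mmu-let-7f-5p stood at 6479, 6669.5 and 4966 CPM in Miwi KO libraries and at 3811, 4351 and 3617 in WT libraries. The groups did not overlap, and the ratio of the means, 6038 ± 933 in Miwi KO to 3926.5 ± 380.5 in WT (SD, n = 3 each), was 1.54. The edgeR test gave a log2 change of 0.62 (SE 0.17, adjusted p = 0.00104). Both calls were kept with each library left out in turn, at log2 changes of 0.76 to 1.02 for let-7a-5p and 0.54 to 0.74 for let-7f-5p.

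**Figure D1:**
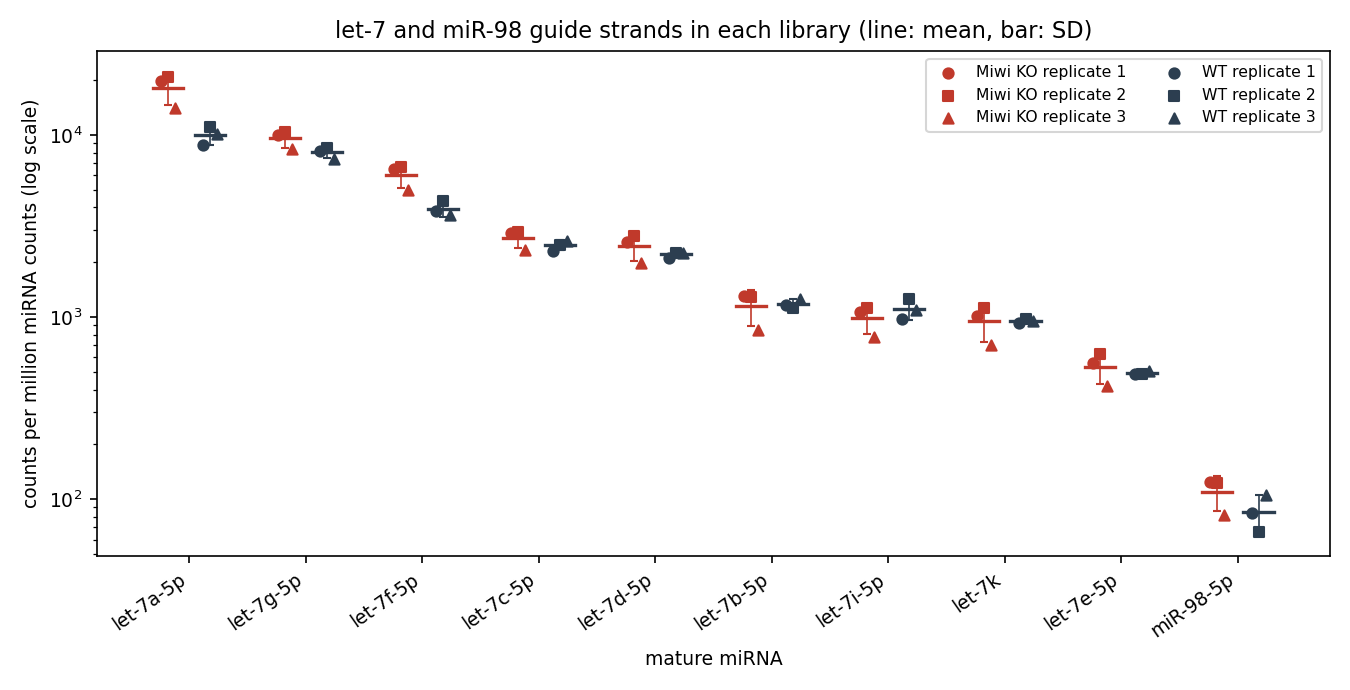
Level of the 10 tested 5p and armless members in each of the 6 libraries, in CPM (counts per 1000000 miRNA counts) on a log axis, with Miwi KO (red) left of WT (dark blue) for each member, a line at the mean and a bar for the SD. For let-7a-5p and let-7f-5p the 3 Miwi KO points lie above the 3 WT points, and for the other 8 members the points overlap.

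The entry mmu-let-7g-5p, the second most abundant member, held 10024, 10438 and 8364 CPM in Miwi KO libraries, against 8155, 8529 and 7381 in WT libraries. Miwi KO replicate 3 lay within the WT range, so the groups overlapped. The ratio of the means was 1.20 and the log2 change of 0.26 (SE 0.16) did not pass the test (edgeR, adjusted p = 0.131). let-7c-5p and let-7d-5p, of middling level, were close to each other and overlapped between the genotypes. let-7c-5p had 2897, 2929 and 2331 CPM in Miwi KO libraries and 2319.75, 2499.7 and 2634 in WT libraries (log2 change 0.13, adjusted p = 0.487 by edgeR). let-7d-5p, whose gene stands in the same transcript unit as Mirlet7a-1 and Mirlet7f-1, had 2590.1, 2792 and 1978 CPM in Miwi KO libraries and 2108, 2259.9 and 2256 in WT libraries (log2 change 0.15, adjusted p = 0.429 by edgeR).

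Among the lower members the Miwi KO values straddled the WT values. let-7b-5p stood at 1304, 1290.2 and 854 CPM in Miwi KO libraries and 1168, 1127 and 1264 in WT libraries, and let-7i-5p at 1061, 1119.55 and 779.8 in Miwi KO libraries and 974, 1255 and 1089 in WT libraries. let-7k, a shorter strand of 19 bases, had 1018, 1119.55 and 706 CPM in Miwi KO libraries against 929, 974 and 951 in WT libraries. In each of these 3 the lowest value of all 6 libraries was that of Miwi KO replicate 3. Their log2 changes were -0.05 for let-7b-5p (adjusted p = 0.804), -0.17 for let-7i-5p (adjusted p = 0.409) and -0.01 for let-7k (adjusted p = 0.950) by edgeR. let-7e-5p had 558, 628 and 419 CPM in Miwi KO libraries and 489.5, 485 and 508 in WT libraries (log2 change 0.10, adjusted p = 0.651 by edgeR). miR-98-5p, the rarest tested 5p member, had 124, 123 and 82.1 CPM in Miwi KO libraries against 83.4, 66.3 and 106 in WT libraries, counts of 13 to 29 reads, and its log2 change of 0.33 (SE 0.35) did not pass (edgeR, adjusted p = 0.380). let-7j, with 2 to 9 counts per library, was under the filter on low counts and was not tested.

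Miwi KO replicate 3 stood apart from the other 2 Miwi KO libraries for the family. It held the lowest Miwi KO value for 10 of the 10 tested 5p and armless members, was below every WT library for 5 of them and above every WT library for 2. Each of the other 2 Miwi KO libraries was above every WT library for 9 of the 10. Without this library the log2 change was 1.02 for let-7a-5p and 0.74 for let-7f-5p. The replicate 3 library of each genotype was also the one richest in snoRNA and mitochondrial tRNA reads, and the part of that difference in the family's levels was not tested.

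By count, 5 of the 14 members that passed the filter on low counts were called higher in Miwi KO and 0 lower, at an adjusted p under 0.05 on the miRNA total. The called members were let-7a-5p, let-7f-5p, let-7b-3p, let-7f-2-3p and let-7d-3p. The 3 called 3p strands reached the filter's minimum in all 3 libraries of Miwi KO only, the group in which they are high, so their part of the count is a description. Among the 10 tested 5p and armless members, 2 were called higher and 0 lower. On the same scale 8.33% of the 348 tested miRNAs were called higher and 13.8% lower, and 6.3% of all tested entries were called higher and 76.7% lower. The median log2 change was 0.14 over the 10 tested 5p and armless members, 0.29 with the 4 tested 3p strands included and -0.11 over the tested miRNAs. The 4 tested 3p strands and miR-98-5p met the filter's minimum in every Miwi KO library but not in every WT library. Both family medians are therefore descriptions. Under a simpler reading, 4 of the 14 had all Miwi KO libraries above all WT libraries and 0 had them below, beside 12.1% of tested miRNAs above and 22.4% below. Of these 4, 2 were 3p strands, with the same limit. Fitting the miRNA entries alone, where 5.17% were called higher and 7.47% lower, kept let-7a-5p (adjusted p = 0.00388) and let-7f-5p (adjusted p = 0.0185) and none of the 3p strands.

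**Figure D2:**
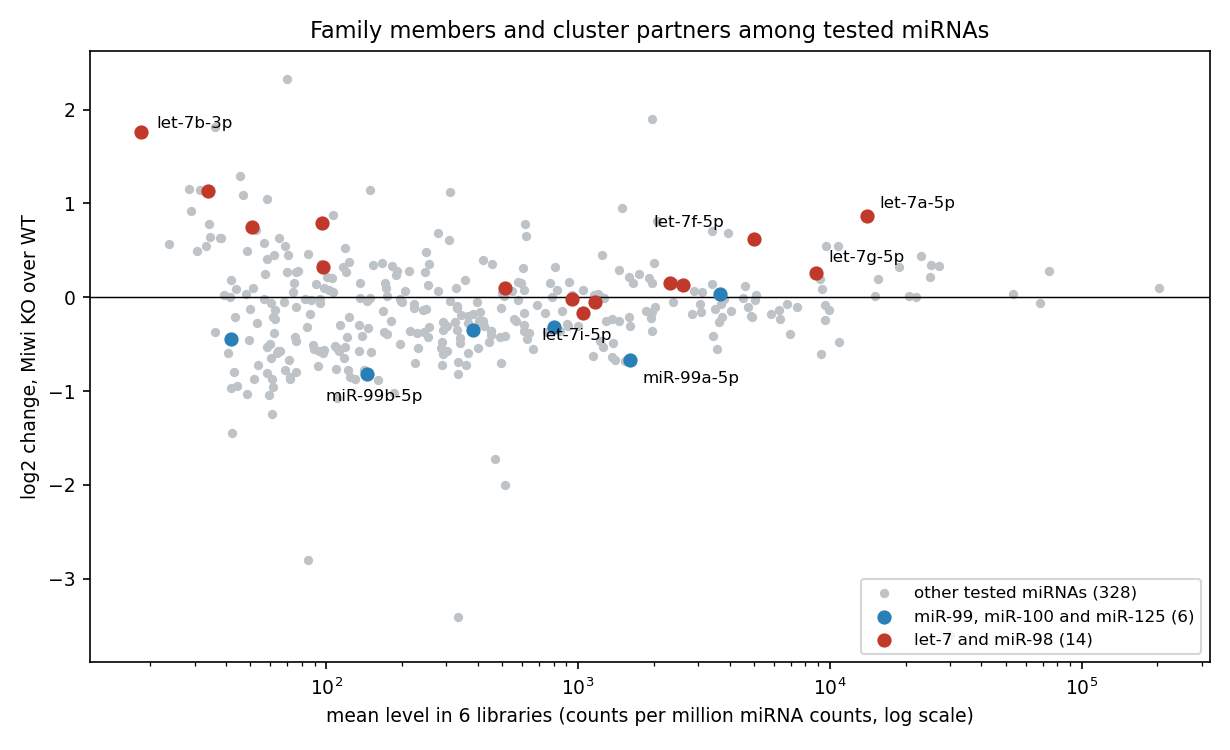
Log2 change (Miwi KO over WT, miRNA total scaling) of the 348 tested miRNAs against their mean level over 6 libraries (CPM, log axis), with the 14 tested family members in red, the 6 tested cluster partners in blue and the rest in grey. The changes of let-7a-5p (0.87) and let-7f-5p (0.62) lie above 0, and the blue points lie between -0.82 and 0.03.

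The direction of several members depends on the scaling, since piRNA reads made up 79.5% to 80.8% of the table in Miwi KO libraries and 93.3% to 93.9% in WT libraries. When the whole table set the scale through TMM factors (a trimmed mean of ratios between libraries), all 14 members were called higher in Miwi KO, at log2 changes of 1.75 to 3.64, as were 97.1% of tested miRNAs, with 0.575% of these called lower. Of all tested entries, 35% were called higher and 41.3% lower on that scale. On that scale let-7b-5p, let-7i-5p and let-7k, which lay at or slightly below 0 on the miRNA total, had log2 changes of 1.87, 1.75 and 1.91. The median change of the tested miRNAs moved with the scaling, to 1.81 from -0.11 on the miRNA total, and that of all tested entries to -0.20 from -2.14. TMM factors of the miRNAs alone gave a median of -0.03 for the tested miRNAs.

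**Figure D3:**
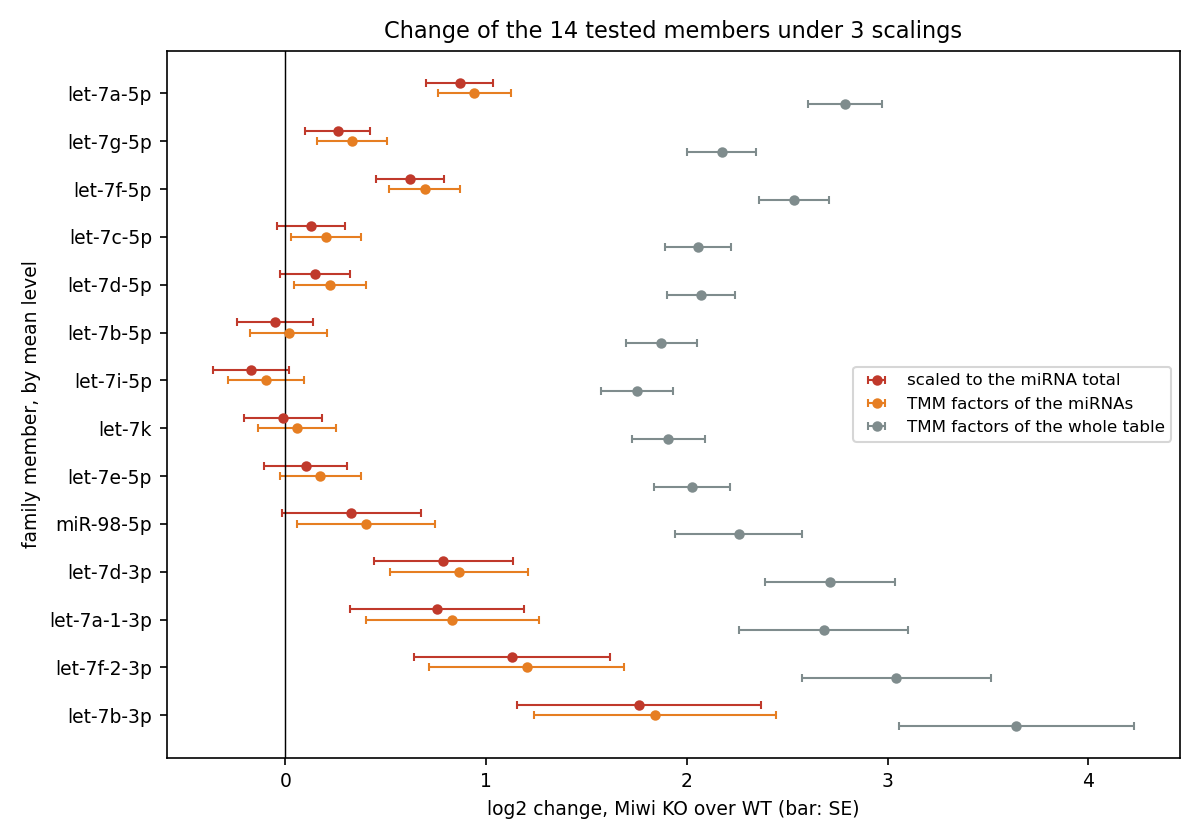
Log2 change (Miwi KO over WT, bar: SE of the edgeR fit) of the 14 tested members, ordered by mean level within each arm, under the miRNA total (red), TMM factors of the miRNAs (orange) and TMM factors of the whole table (grey). The grey points lie between 1.75 and 3.64 and the red points between -0.17 and 1.76. let-7b-5p and let-7k are below 0 only in red, and let-7i-5p is below 0 in red and orange.

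Summed over its 22 entries, the family made up a larger part of the miRNA counts in Miwi KO libraries. The sum was 46085, 48148 and 34914 CPM in Miwi KO libraries and 29016, 32822 and 30065 in WT libraries. The Miwi KO libraries all lay above the WT libraries, with replicate 3 the nearest to them. The mean was 4.30% ± 0.712 of miRNA counts in Miwi KO and 3.06% ± 0.197 in WT (SD, n = 3 each), a ratio of 1.41, with an exact permutation p of 0.1 (two-sided), the smallest that 3 against 3 libraries can give. Per 1000000 counts of the whole table, the sum was 8057 ± 1555 in Miwi KO and 1700.1 ± 245 in WT, a ratio of 4.74. let-7a-5p and let-7f-5p together came to 24231 ± 4461 CPM in Miwi KO and 13892 ± 1413 in WT, a ratio of 1.74 with no overlap. Without those 2 members the family came to 18818 ± 2659.8 in Miwi KO and 16743 ± 597 in WT, a ratio of 1.12 with overlapping libraries (exact permutation p = 0.4, two-sided).

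Within the family, let-7a-5p took a larger part in Miwi KO. Its share of all family counts was 42.7%, 43.0% and 40.6% in Miwi KO libraries, against 30.2%, 33.6% and 33.5% in WT libraries. Every Miwi KO share lay above every WT share, replicate 3 included. The mean share was 42.1% ± 1.35 in Miwi KO and 32.5% ± 1.94 in WT (SD, n = 3 each). let-7f-5p took 14.1%, 13.9% and 14.2% in Miwi KO libraries and 13.1%, 13.3% and 12.03% in WT libraries, again without overlap. let-7g-5p, at 22.5% ± 1.29 in Miwi KO and 26.2% ± 1.79 in WT, took the smaller part in Miwi KO.

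Of the 14 tested members, 3 had a higher share in every Miwi KO library than in any WT library (let-7a-5p, let-7f-5p and let-7b-3p) and 7 had a lower one (let-7g-5p, let-7c-5p, let-7d-5p, let-7b-5p, let-7i-5p, let-7k and let-7e-5p). Shares of a fixed total are bound to one another, so a larger share for let-7a-5p leaves smaller shares for others. The same count over all tested miRNAs was not made on this scale, so these counts only describe the members. For the members without overlap the exact permutation p was 0.1 each, and 0.14 when adjusted over the 14. The shares of let-7i-5p were 2.30%, 2.33% and 2.23% in Miwi KO libraries against 3.36%, 3.82% and 3.62% in WT libraries.

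**Figure D4:**
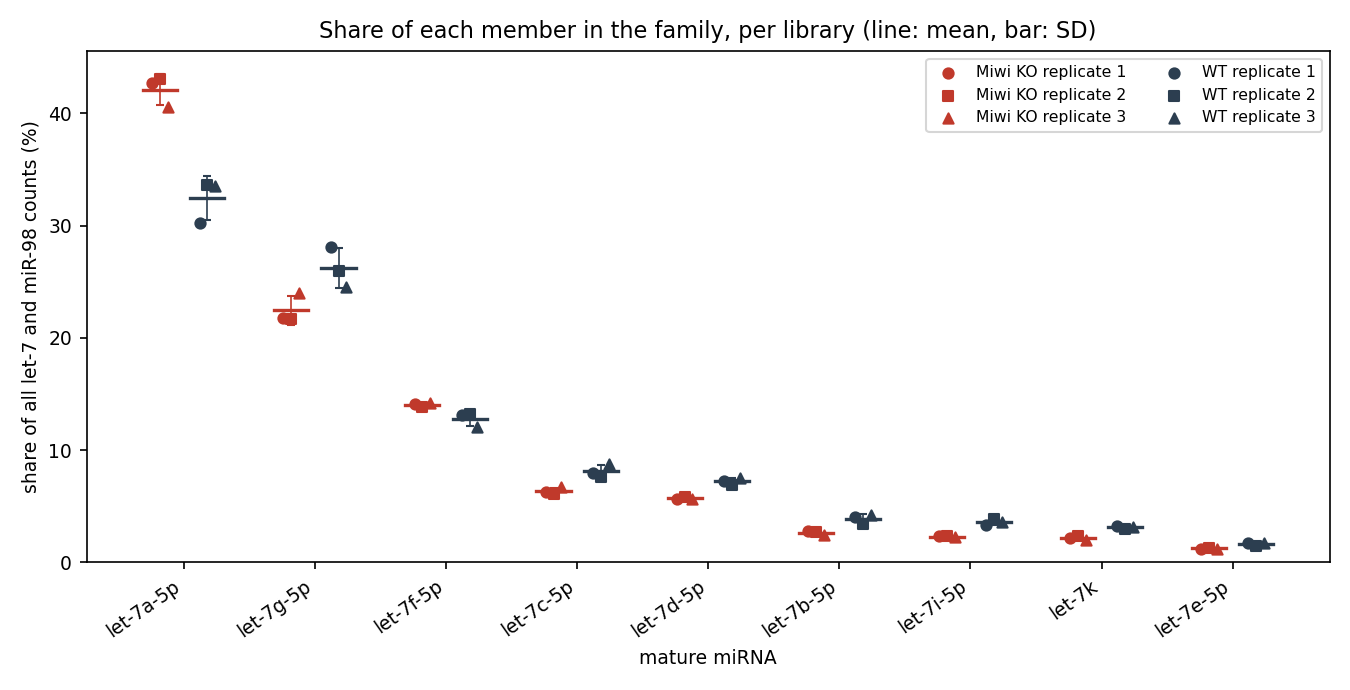
Share of all let-7 and miR-98 counts held by the 9 most abundant members in each of the 6 libraries (percent, linear axis from 0), with Miwi KO (red) left of WT (dark blue), a line at the mean and a bar for the SD. let-7a-5p stands at 42.1% on average in Miwi KO and 32.5% in WT, and the smaller members from let-7c-5p to let-7e-5p stand lower in Miwi KO.

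The same question was put to edgeR with the family total as the library size, which asks which members changed relative to the family. let-7i-5p fell by 0.66 on the log2 scale relative to the family (SE 0.24, adjusted p = 0.0116), let-7b-5p by 0.55 (SE 0.24, adjusted p = 0.0334) and let-7k by 0.51 (SE 0.24, adjusted p = 0.0472). These were 3 of the 14 members called lower, with 0 called higher, on a scale on which 48.3% of tested miRNAs were called lower and 1.15% higher, and 82.9% of all tested entries lower and 2.61% higher. let-7a-5p, at 0.38 (SE 0.26, adjusted p = 0.177), and let-7f-5p, at 0.13 (SE 0.25, adjusted p = 0.617), did not pass relative to the family. The call of let-7i-5p was kept with each library left out, with adjusted p values up to 0.0397. That of let-7b-5p was lost without Miwi KO replicate 1 (adjusted p = 0.0617), WT replicate 1 (adjusted p = 0.125) or WT replicate 3 (adjusted p = 0.0962), and that of let-7k without any 1 library other than Miwi KO replicate 2 (adjusted p of 0.0663 to 0.154).

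Ratios between members within a library do not depend on the scaling, and they separated the genotypes for let-7a-5p. The count of let-7a-5p over that of let-7g-5p was 1.96, 1.99 and 1.69 in Miwi KO libraries and 1.08, 1.29 and 1.37 in WT libraries. Over let-7c-5p, from which let-7a-5p differs at 1 base, the ratio was 6.65 ± 0.517 in Miwi KO and 4.01 ± 0.354 in WT (SD, n = 3 each). let-7a-5p over let-7f-5p came to 3.00 ± 0.132 in Miwi KO and 2.54 ± 0.243 in WT, and let-7f-5p over its genomic neighbour let-7d-5p to 2.47 ± 0.0678 in Miwi KO and 1.78 ± 0.163 in WT. None of these 4 ratios overlapped between genotypes (exact permutation p = 0.1 each, two-sided, n = 3 each, the smallest possible). let-7f-5p over miR-98-5p, whose gene neighbours Mirlet7f-2 on the X chromosome, overlapped at 55.7 ± 4.22 in Miwi KO and 48.5 ± 15.9 in WT.

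The order of the members by mean level was the same in both genotypes: let-7a-5p, let-7g-5p, let-7f-5p, let-7c-5p, let-7d-5p, let-7b-5p, let-7i-5p, let-7k, let-7e-5p, miR-98-5p and let-7j. The levels are reads per mature strand, each of 22 bases except let-7k with 19 and let-7j with 24. The step between the first and second member was wider in Miwi KO, where let-7a-5p was 1.89 times let-7g-5p, than in WT, where it was 1.24 times. The step between let-7g-5p and let-7f-5p was 1.59 in Miwi KO and 2.04 in WT. In Miwi KO the ranges over libraries of let-7c-5p and let-7d-5p, of let-7b-5p and let-7i-5p, and of let-7i-5p and let-7k overlapped, and in WT those of the last 2 of these pairs did. Within a library, let-7c-5p was above let-7d-5p and let-7b-5p above let-7i-5p in 3 of 3 Miwi KO libraries, and let-7i-5p above let-7k in 2 of 3. In WT, let-7b-5p was above let-7i-5p in 2 of 3 libraries and let-7i-5p above let-7k in 3 of 3.

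The 3p strands, the passenger strands of most let-7 hairpins, were rare: all 11 together made up 0.670% ± 0.0537 of family counts in Miwi KO and 0.622% ± 0.0705 in WT (SD, n = 3 each), with overlap. The 4 that were tested are shown 5′ to 3′ with bases 2 to 8 in capitals, since 3 of them were called.

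mmu-let-7a-1-3p: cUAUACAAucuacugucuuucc

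mmu-let-7b-3p: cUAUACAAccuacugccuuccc

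mmu-let-7d-3p: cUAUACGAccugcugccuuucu

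mmu-let-7f-2-3p: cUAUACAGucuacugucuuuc

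The let-7a-1-3p sequence is also that of let-7c-2-3p, which has no entry of its own in the table, so its counts may hold both. let-7d-3p, the most abundant, had 26, 22 and 26 counts in Miwi KO libraries and 12, 16 and 15 in WT libraries, with means of 123 ± 24.02 CPM in Miwi KO and 69.8 ± 10.7 in WT (log2 change 0.79, SE 0.35, adjusted p = 0.0363 by edgeR). let-7b-3p had 6, 4 and 8 counts in Miwi KO libraries against 1, 3 and 1 in WT libraries (log2 change 1.76, SE 0.61, adjusted p = 0.00808 by edgeR). Neither overlapped between genotypes once scaled. let-7f-2-3p, from the X-linked gene, had 15, 7 and 7 counts in Miwi KO libraries and 6, 2 and 5 in WT libraries, overlapping in CPM (log2 change 1.13, SE 0.49, adjusted p = 0.0331 by edgeR). let-7a-1-3p had 20, 7 and 13 counts in Miwi KO libraries and 8, 11 and 4 in WT libraries and did not pass (log2 change 0.75, adjusted p = 0.105 by edgeR).

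These 3p calls rest on few reads and on how the filter works. The filter asks for a minimum share of the table counts in 3 libraries, and all 4 tested 3p strands met it in the 3 Miwi KO libraries. In WT libraries let-7d-3p met it in 1 and the other 3 strands in 0, so these strands entered the test through the Miwi KO libraries. Leaving out WT replicate 3 ended the call of let-7b-3p (adjusted p = 0.0591). That of let-7d-3p ended without Miwi KO replicate 2 (adjusted p = 0.116), WT replicate 1 (adjusted p = 0.0825) or WT replicate 3 (adjusted p = 0.0865). That of let-7f-2-3p ended without Miwi KO replicate 1 (adjusted p = 0.217), Miwi KO replicate 2 (adjusted p = 0.0581), WT replicate 2 (adjusted p = 0.146) or WT replicate 3 (adjusted p = 0.0665).

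The other 7 strands of the 3p arm had at most 5 counts in any library and were not tested. let-7f-1-3p had 2, 1 and 3 counts in Miwi KO libraries and 2, 4 and 1 in WT libraries, and let-7e-3p had 0, 1 and 2 counts in Miwi KO libraries and 1, 2 and 3 in WT libraries. let-7g-3p, the passenger of the second most abundant member, had 0 counts in all 3 Miwi KO libraries and 2, 0 and 5 in WT libraries. The libraries overlapped at 0, and no fold is given. miR-98-3p, let-7i-3p, let-7c-1-3p and let-7a-2-3p summed to 4, 2, 1 and 0 counts over the Miwi KO libraries and to 3, 5, 4 and 1 over the WT libraries.

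The 5p strand made up most reads of each hairpin pair in both genotypes. Over the 9 pairs with a named 3p strand, the mean 5p share ran from 94.5% ± 0.868 in Miwi KO and 94.3% ± 1.78 in WT for miR-98 up to the full count for let-7g in Miwi KO. For let-7d it was 95.2% ± 0.583 in Miwi KO and 96.9% ± 0.427 in WT, and for let-7b 97.4% ± 0.988 in Miwi KO and 99.3% ± 0.549 in WT, lower in every Miwi KO library. For let-7c it was 99.9% ± 0.101 in Miwi KO and 99.7% ± 0.0529 in WT, higher in every Miwi KO library but on 1 and 4 counts of the 3p strand. The exact permutation p was 0.1 for each of these 3 pairs and 0.3 adjusted over the 9, and the other 6 pairs overlapped (SD, n = 3 each).

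Some let-7 genes are transcribed beside miR-99, miR-100 and miR-125 genes, miRNAs of other seeds that are known to be made from the same primary transcripts. These cluster partners have 11 entries in the table, of which 6 were tested, with 0 called higher and 2 lower in Miwi KO on the miRNA total. On that scale 8.33% of all tested miRNAs were called higher and 13.8% lower. miR-99a-5p, beside Mirlet7c-1, had 1487, 1140.03 and 1096 CPM in Miwi KO libraries against 1925, 1592 and 2406 in WT libraries. The groups did not overlap, and the log2 change of -0.67 (SE 0.19, adjusted p = 0.00150 by edgeR) turned to 1.27 when the whole table set the scale. miR-99b-5p, beside Mirlet7e, had 132, 68.3 and 111 CPM in Miwi KO libraries against 189, 133 and 239.8 in WT libraries, with Miwi KO replicate 1 just under WT replicate 2. Its log2 change of -0.82 (SE 0.31, adjusted p = 0.0169 by edgeR) turned to 1.13 on the whole-table scale and lost its call without Miwi KO replicate 2 (adjusted p = 0.0808) or WT replicate 3 (adjusted p = 0.101).

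The other 4 partners did not pass. miR-125b-5p, the most abundant, averaged 3692 ± 284 CPM in Miwi KO and 3609 ± 185 in WT (log2 change 0.03, adjusted p = 0.853 by edgeR). miR-125a-5p averaged 718 ± 75.2 in Miwi KO and 893 ± 118 in WT (log2 change -0.31, adjusted p = 0.131 by edgeR), and miR-100-5p 333 ± 73.2 in Miwi KO and 430.2 ± 139 in WT (log2 change -0.35, adjusted p = 0.178 by edgeR). miR-99a-3p averaged 36.0 ± 4.38 in Miwi KO and 47.9 ± 6.30 in WT (log2 change -0.44, adjusted p = 0.325 by edgeR). Without WT replicate 2 miR-100-5p was called, at a log2 change of -0.57 (adjusted p = 0.0356). All 6 tested partners were called higher on the whole-table scale, as nearly all tested miRNAs were.

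The family sum over the summed partners was 6.91, 8.68 and 5.59 in Miwi KO libraries and 4.03, 5.18 and 3.76 in WT libraries. The groups did not overlap and the ratio of the geometric means was 1.62. The folds of the next 3 comparisons are also ratios of geometric means, while the printed means are arithmetic. Over the miR-30 family the sum was 1.44 times higher in Miwi KO, again without overlap. Over the miR-34 and miR-449 group, the most abundant germ cell miRNAs here, it came to 0.129 ± 0.0269 in Miwi KO and 0.104 ± 0.00471 in WT, 1.23 times higher with overlap. Over the mesenchymal and peritubular list of miR-143, miR-145a, miR-199, miR-214 and miR-10b it was 2.08 ± 0.564 in Miwi KO and 1.07 ± 0.220 in WT, 1.91 times higher without overlap. Of these 4 comparisons, 3 had an exact permutation p of 0.1 and an adjusted p of 0.133, and the miR-34 and miR-449 comparison had a p of 0.4 (two-sided, n = 3 each).

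Outside the family, 2 miRNAs of the table share bases 2 to 7 of let-7a-5p. miR-1961 shares the whole seed in a strand of 17 bases, and miR-202-3p, a miRNA of the gonads, ends its seed differently, as let-7j does.

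mmu-miR-1961: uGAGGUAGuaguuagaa

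mmu-miR-202-3p: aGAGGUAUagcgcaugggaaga

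miR-1961 had 75, 58 and 210 counts in Miwi KO libraries and 165, 44 and 253 in WT libraries, and miR-202-3p had 44, 24 and 35 in Miwi KO libraries and 29, 43 and 51 in WT libraries. Both overlapped and neither passed, at log2 changes of -0.45 (adjusted p = 0.184) and -0.25 (adjusted p = 0.397) by edgeR. miR-1961 ranged widely within each genotype.

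Some marker lists of other cell types differed between the genotypes, on a scale where 8.33% of tested miRNAs were called higher and 13.8% lower. Mesenchymal and peritubular miRNAs were lower in Miwi KO for 6 of 8 tested entries of 11, summing to 19101 to 24194 CPM in Miwi KO libraries and 25145 to 34654 in WT libraries. miR-145a-5p, the most abundant of that list, averaged 9117 ± 2554.5 in Miwi KO and 12671 ± 3762 in WT, with overlapping libraries (log2 change -0.47, adjusted p = 0.0216 by edgeR). miR-143-3p, another smooth muscle and stromal miRNA, averaged 7343 ± 346 in Miwi KO and 11125 ± 1297 in WT without overlap (log2 change -0.60, adjusted p = 0.000869 by edgeR). Erythroid miRNAs summed to 38.3 to 54.6 in Miwi KO libraries and 89.0 to 128 in WT libraries, where miR-451a was the 1 entry of 5 tested and was lower, and miR-486a-3p was at 0 in all libraries. Endothelial miRNAs (0 of 2 called) summed to 8039 to 8717.5 in Miwi KO libraries and 8333 to 8580.5 in WT libraries, and Sertoli and gonadal ones (0 of 3 called) to 1904 to 2403 in Miwi KO libraries and 2132 to 2613.5 in WT libraries.

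Among leukocyte miRNAs 1 of 5 tested entries of 8 was higher, miR-155-5p, and the list summed to 1978 to 2271 CPM in Miwi KO libraries and 1579.9 to 2092 in WT libraries. miR-155-5p had 17, 10 and 13 counts in Miwi KO libraries and 5, 7 and 4 in WT libraries. It reached the filter's minimum in the Miwi KO libraries only, the group in which it is high, so its call is a description. Spermatogonial miRNAs (0 of 6 tested called, of 10 entries, miR-222-5p at 0 throughout) summed to 8813 to 10492 in Miwi KO libraries and 9869 to 11115 in WT libraries. Germ cell miRNAs of the X-linked clusters were lower for 5 of 24 tested entries of 26, beside 13.8% of all tested miRNAs. Their sum of 60044 to 62115 in Miwi KO libraries lay below the 67489.6 to 68593 of WT libraries. The miR-34 and miR-449 entries were higher for 4 and lower for 1 of 9, on the miRNA total. Among the 4, miR-449a-3p had 18, 13 and 17 counts in Miwi KO libraries and 8, 7 and 8 in WT libraries. That strand also reached the filter's minimum in the Miwi KO libraries only, so its part of the count is a description. On the whole-table scale every tested entry of these lists was called higher in Miwi KO except miR-451a. Their part in the family's differences was not tested.

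The miRNAs whose levels ran most like the family sum over the 6 libraries were, among 241 entries with a mean of at least 100 CPM, miR-449a-5p (Pearson r = 0.928), miR-374b-5p (0.909), miR-1a-3p (0.904), miR-497a-5p (0.881) and miR-19a-3p (0.879). The points are the same 6 libraries for each miRNA and share their miRNA total, so these values only describe. miR-449a-5p averaged 26621.5 ± 2332 CPM in Miwi KO and 19608 ± 2765 in WT, and miR-1a-3p, a miRNA of striated muscle, averaged 765 ± 65.0 in Miwi KO and 483 ± 42.7 in WT. Like the family sum, both had replicate 2 as their highest library in each genotype.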

How the data were processed

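Small RNA was isolated with the mirVana kit and libraries were made with the Ion Total RNA-Seq Kit v2, per the labels' protocols. The deposited table holds raw read counts for 45932 reference sequences in 6 libraries, counted by featureCounts v1.5.0-p2, per the file headers. The submitters' processing notes also name cutadapt, the mm9 build and DESeq2. No aligner, and no rule for reads that match several sequences, is named there. Since reads were counted per mature sequence, no mm9 coordinate was used, and gene positions are those of RefSeq and GENCODE on GRCm38.

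Counts were fitted with edgeR 4.0.16 (quasi-likelihood, R 4.3.3) over all 24682 entries that passed filterByExpr (minimum count 10, total 15), with the library's miRNA total as library size, and a second time with the family total. Calls are at a Benjamini-Hochberg adjusted p under 0.05. Single values were compared by exact two-sided permutation (scipy 1.17.1). DESeq2 1.42.0, other scalings, filters and left-out libraries were alternatives. Replicates disagreed by more than sampling noise over miRNAs (chi-square per degree of freedom 5.13 to 15.7), so each library counts as 1 sample; p-values measure only the spread between libraries, which may be technical. Per-sample values not assigned to a sample numbered 0.

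The members, lists, tests and the rule for named miRNAs (all members, tested cluster partners and seed relatives, 5 miRNAs most like the family sum, up to 2 per marker list) were chosen with earlier results of these data known. miR-155-5p, miR-222-5p, miR-449a-3p and miR-486a-3p were named after their values were seen. The tests were checked on simulated counts. For edgeR these held changes in few entries, all well counted. Recovery of changes in strands of few reads, or in a table where most entries change, was not checked.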

Additional observations from a re-analysis of the deposited data

How the results depend on the processing

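let-7a-5p and let-7f-5p kept their direction and their call under all 19 alternatives run for each. Of the single-miRNA values under an alternative, 491 kept their direction and call, 33 lost and 33 gained a call and 42 changed sign; for the main counts and sums, 108 were close to the main value and 30 were not. The number of members called higher, 5, became 2 under a stricter filter (minimum count 50), 2 by DESeq2's Wald test, 2 in a fit of the miRNA entries alone, 3 without both replicate 3 libraries, 14 under each of the whole-table scalings (TMM, table total, DESeq2 size factors) and 9 under TMM factors of all entries other than piRNAs, chosen after seeing the data; leaving out single libraries gave 2 to 5. The log2 ratio of the family sum's geometric means, 0.48, became 2.24 per table total and ran from 0.39 to 0.62 without single libraries. let-7b-5p changed sign to 1.87 (whole-table TMM), 1.71 (table total), 1.83 (DESeq2 size factors), 0.018 (miRNA TMM), 0.21 (TMM without piRNAs) and 0.18 (without both replicate 3 libraries), with -0.16 to 0.13 without single libraries. let-7i-5p changed sign to 1.75, 1.58 and 1.71 under the 3 whole-table scalings in that order and to 0.087 by TMM without piRNAs. let-7k changed sign to 1.91, 1.74, 1.87, 0.059, 0.25 and 0.16 in the same order as let-7b-5p, and to 0.0063 with the members left out of the miRNA total, with -0.14 to 0.16 without single libraries; let-7e-5p ran from -0.019 to 0.26. Partners called lower, 2, became 1 under the stricter filter, the miRNA-only fit, TMM without piRNAs and without both replicate 3 libraries, and 1 to 3 without single libraries; under the 3 whole-table scalings 0 were lower and 6 higher, with log2 changes (TMM, table total, size factors) of 1.59, 1.41 and 1.54 for miR-100-5p, 1.63, 1.45 and 1.59 for miR-125a-5p, 1.48, 1.30 and 1.44 for miR-99a-3p, 1.27, 1.10 and 1.23 for miR-99a-5p and 1.13, 0.95 and 1.08 for miR-99b-5p. miR-125b-5p ran from -0.0042 to 0.095 without single libraries. Relative to the family, 0 higher and 3 lower became 0 to 1 higher and 1 to 3 lower without single libraries and 1 lower without both replicate 3 libraries, where miR-98-5p turned to 0.12 and let-7a-1-3p to -0.12; without single libraries these ran from -0.35 to 0.067 and from -0.12 to 0.62. The main fit did not pair libraries by replicate number. Deviations of same-numbered libraries correlated at 0.0215, 0.0733 and 0.105 over all tested entries, each the highest value of its Miwi KO library. Over miRNAs they correlated at -0.0451, 0.180 and 0.107, where that held for 2 of 3. Whether the numbers mark shared handling was not tested. With the number as a block, 6 members were called higher, let-7g-5p among them, and relative to the family 1 was higher and 6 lower. The scalings differ by construction in whether piRNA reads enter; for the other changes the cause was not tested. The stricter filter left no value for the tested 3p strands, miR-98-5p, miR-99a-3p and miR-99b-5p. Depth limits the 3p strands, none above 26 counts in a library.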
